A study of Mus musculus with 6 samples.

Results

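The nucleosome remodeling and deacetylase complex (NuRD) is a chromatin repressor that joins ATP-driven nucleosome remodeling and histone deacetylation in a single assembly. Its deacetylases HDAC1 and HDAC2 sit on an MTA scaffold together with the histone-binding proteins RBBP4 and RBBP7. A GATAD2 protein links this deacetylase part, through MBD2 or MBD3, to the remodeler CHD4. MBD2 and MBD3 do not occur in the same complex, and in mouse embryonic stem cells (ESCs) NuRD is known for tempering the transcription of pluripotency genes and for allowing exit from self-renewal. The 10 subunit genes described here, *Chd4*, *Hdac1*, *Hdac2*, *Mta1*, *Mta2*, *Mta3*, *Rbbp4*, *Rbbp7*, *Gatad2a* and *Gatad2b*, were taken by symbol from a table of 13721 distinct gene symbols. Each was found on a single entry, and all 10 passed the filter on low values.

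The libraries were made from mouse ESCs of the strain label C57/129 and the genotype Dgcr8-/-, which all groups share. DGCR8 works with the nuclease Drosha to cut microRNA precursors out of primary transcripts, and cells without it lack canonical microRNAs. RNA was taken 48 h after transfection in 3 groups of 2 libraries: miR-294 (a microRNA mimic), siMbd2 (siRNA against *Mbd2*) and CTR, with 50 nM given as the dose of mimics and siRNAs. What the CTR cells received is not stated in the labels. Their library columns are headed CTR, and the deposited ratio columns name mock as the group divided by. The labels do not say whether replicates were separate cultures, so p-values measure only the spread between these libraries, which may be technical. The values are RPKM (reads per kilobase of transcript, scaled to the library's mapped reads, computed by the authors), and read depth is unknown. Differences are given on the log2(RPKM + 1) scale, first-named group minus second, and a gene is called higher or lower at a Benjamini-Hochberg adjusted p under 0.05 in limma over all 11428 genes tested. With 2 libraries a side, the smallest two-sided p of an exact permutation test is 0.33, and the calls therefore use the spread that limma pools over genes. In these bulk samples, fewer cells of a type and less RNA per cell cannot be told apart.

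The ESC markers *Pou5f1*, *Sox2*, *Nanog*, *Zfp42* and *Esrrb* summed to between 1783 and 1800 RPKM in miR-294, 1726 RPKM in both siMbd2 libraries, and 1608 and 1677 RPKM in CTR. The sum is led by *Pou5f1* (1059 and 1056 RPKM in miR-294, 790.4 and 689 RPKM in CTR), while *Nanog* went the other way (206 and 211 RPKM in miR-294, 354 and 372 RPKM in CTR), as did *Sox2* (194 and 191 RPKM in miR-294, 259.8 and 289 RPKM in CTR). Of 7 fibroblast feeder markers, 2 are listed. Their sums were 3.56 and 3.89 RPKM in miR-294, between 1.15 and 1.32 RPKM in siMbd2, and between 1.53 and 1.64 RPKM in CTR. The 2 listed of 3 trophectoderm markers summed to between 4.04 and 4.65 RPKM in miR-294, 2.19 and 2.40 RPKM in siMbd2, and 1.67 and 1.83 RPKM in CTR. The 4 primitive endoderm markers summed to 1.95 and 1.98 RPKM in miR-294, 2.10 and 2.44 RPKM in siMbd2, and 2.84 and 3.39 RPKM in CTR. Of these *Gata4* was lower in miR-294 (0.96 and 0.92 RPKM) than in CTR (3.05 and 2.48 RPKM). *Gata6* was higher in miR-294 (0.70 and 0.77 RPKM) than in CTR (0.15 and 0.18 RPKM). The neuroectoderm markers *Pax6* and *Sox1* moved with the groups too, summing to 7.28 and 7.69 RPKM in miR-294, 13.1 and 15.1 RPKM in siMbd2, and 17.9 and 18.3 RPKM in CTR. The part of these marker differences in the results below was not tested. The CTR libraries differed more from each other than the treated ones did, with a median absolute log2 difference of 0.066 between the miR-294 libraries, 0.064 between the siMbd2 libraries and 0.131 between the CTR libraries. The spread pooled over all 3 groups gave more calls against CTR than a fit of only the 4 libraries compared. For miR-294 these were 7366 and 6835 genes, and for siMbd2 3933 and 3109. *Mbd2* itself, the siRNA target, stood at 11.3 and 12.3 RPKM in miR-294, 7.33 and 6.34 RPKM in siMbd2, and 26.8 and 27.9 RPKM in CTR.

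miR-294 acts through its seed, bases 2 to 8, which pairs with matches in 3′ untranslated regions (3′ UTRs) of mRNAs. The mature sequence is printed below with those of miR-291a and miR-295, which share the seed, from RefSeq (GRCm38.p6), with the seed in capitals. The seed was sought only among microRNAs with names numbered close to miR-294, so others may share it. The gene of mmu-miR-294-3p lies on the plus strand, and its mature arm spans chr7:3220691-3220712.
mmu-miR-294-3p: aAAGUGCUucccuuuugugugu
mmu-miR-291a-3p: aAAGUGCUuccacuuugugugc
mmu-miR-295-3p: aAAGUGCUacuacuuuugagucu

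For every gene, seed matches were sought in its longest 3′ UTR in the GENCODE vM21 annotation of GRCm38, which need not be the form used in these cells. The search used AGCACTTA (8-base), AGCACTT and GCACTTA (7-base, each contained in the 8-base match) and GCACTT (6-base, contained in all of them), on the transcript strand only. Of the 10 subunit genes, *Gatad2b*, *Hdac2* and *Rbbp7* held a match of 7 or 8 bases, against 20.9% of the 10802 tested genes with a 3′ UTR. Only *Gatad2b* held the 8-base match, which 3.69% of those genes hold. *Rbbp4* and *Gatad2a* held the 6-base match alone, and *Chd4*, *Hdac1*, *Mta1*, *Mta2* and *Mta3* held none. The windows below show, in capitals, the 7- and 8-base matches and those of the genes with the 6-base match alone, because they separate the subunit genes with and without a match; further 6-base matches of *Gatad2b* and *Hdac2* are not shown, and a match is a description and not evidence of binding. The *Gatad2b* 3′ UTR is 5405 bases long, with the 8-base match at chr3:90359916-90359923 and a GCACTTA match at chr3:90358594-90358600. The *Hdac2* match lies at chr10:36995292-36995298 and that of *Rbbp7* at chrX:162778547-162778553, all on the plus strand. The *Rbbp4* match lies at chr4:129308886-129308891 and that of *Gatad2a* at chr8:69909301-69909306, both on the minus strand.
Gatad2b, 8-base: tccctcaaatgtattgAGCACTTAata
Gatad2b, 7-base: ggacagagatgttgagtGCACTTAacc
Hdac2, 7-base: gtcagcattcagttaacAGCACTTtca
Rbbp7, 7-base: ctttaccctctgattctAGCACTTtca
Rbbp4, 6-base: aagctggatatgggatgtGCACTTtta
Gatad2a, 6-base: gtcactgtcatacacagtGCACTTggg

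The subunit mRNAs were abundant and covered a wide range. In CTR cells the order of mean levels, which RPKM allows between genes since it is per length, was *Rbbp7* (185 RPKM), *Hdac1* (135), *Rbbp4* (128), *Mta3* (112), *Hdac2* (105), *Chd4* (86.4), *Mta2* (48.6), *Mta1* (34.7), *Gatad2a* (26.7) and *Gatad2b* (20.7). *Hdac1* and *Rbbp4*, and likewise *Mta3* and *Hdac2*, overlapped between the CTR libraries and were not separated in this order. *Rbbp7* was highest and *Gatad2b* lowest in every group. In miR-294 cells *Rbbp4* (152 RPKM) stood above *Hdac1* (122 RPKM), and *Chd4* (110 RPKM) stood above *Hdac2* (79.4 RPKM) and *Mta3* (73.4 RPKM). In siMbd2 cells *Hdac1* (143 RPKM) stood above *Rbbp4* (114 RPKM). By mean level over the 6 libraries, from 70.7% (*Gatad2b*) to 97.5% (*Rbbp7*) of all table entries lay below the subunit gene.

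The summed RPKM of the 10 subunit mRNAs varied little, while the libraries differed in total RPKM, from 429460 (CTR replicate 2) to 493079 (miR-294 replicate 1). It was 850.2 and 851.0 RPKM in miR-294, 851.5 and 850.9 RPKM in siMbd2, and 883 and 880.1 RPKM in CTR. Every treated library thus lay below both CTR libraries in this sum, by a few percent. As a share of all RPKM in a library, the sum took 0.172% and 0.174% in miR-294, 0.181% and 0.183% in siMbd2, and 0.196% and 0.205% in CTR. Single subunits varied more than the sum: the highest library was 1.14 times the lowest for *Rbbp7* and 1.66 times the lowest for *Mta3*.

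**Figure D1:**
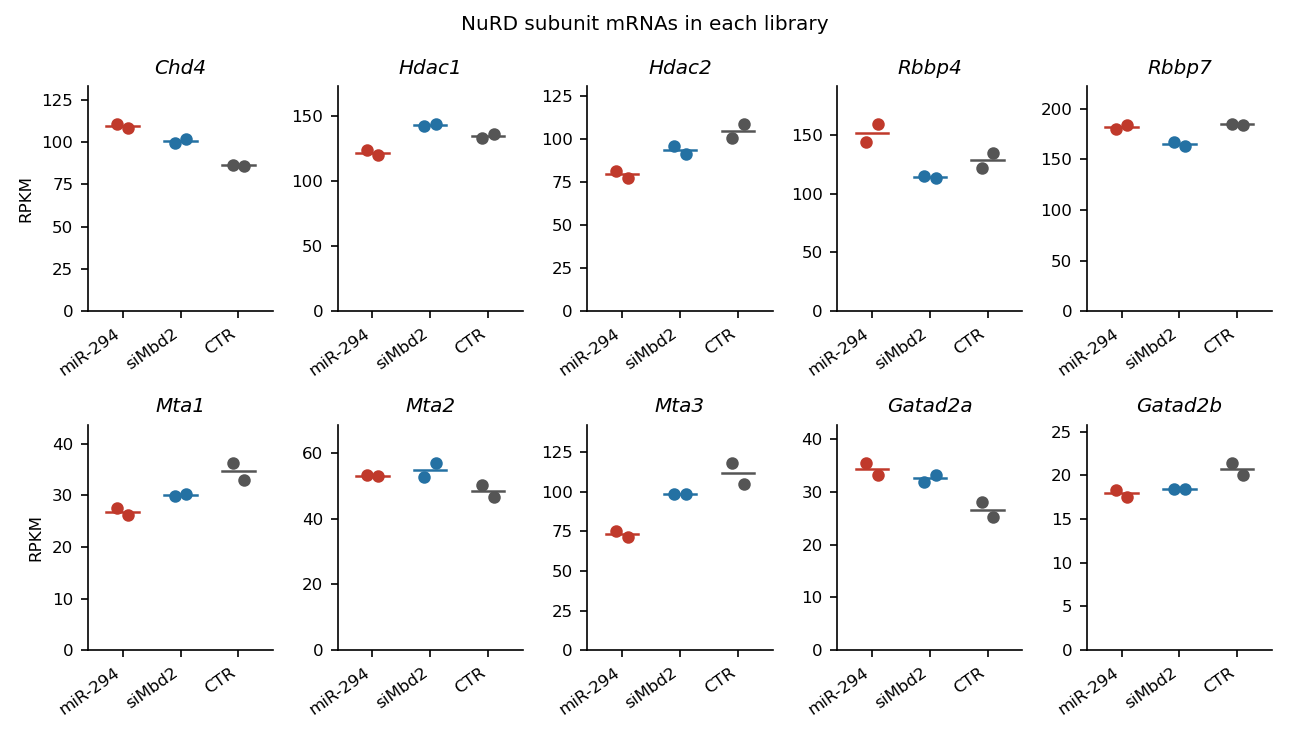
RPKM of each of the 10 NuRD subunit mRNAs (vertical axes from 0) in the miR-294, siMbd2 and CTR groups; points are the 2 libraries of a group and lines their mean. *Chd4* and *Gatad2a* lie highest in miR-294 and lowest in CTR, whereas *Mta3*, *Hdac2* and *Mta1* lie lowest in miR-294 and highest in CTR.

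Set against CTR, the miR-294 cells show mRNA levels after 1 microRNA is returned to cells without their own. Of the 10 subunit genes 3 rose (*Chd4*, *Rbbp4* and *Gatad2a*) and 5 fell (*Hdac1*, *Hdac2*, *Mta1*, *Mta3* and *Gatad2b*), while *Mta2* and *Rbbp7* were not called. Of all genes tested, 64.5% were called, 27.7% higher and 36.8% lower, so 8 called of 10 is read against a background that is itself high. The median log2 difference of the 10 subunit genes was -0.08, the same to 2 decimals as that of all genes tested. This match depended on scaling. With quantile normalization, which gives all libraries a common distribution, the medians were -0.19 for the subunits and 0.02 for all genes. With median-of-ratios scaling, a single factor per library, they were -0.01 and -0.02. The largest subunit difference, that of *Mta3*, was equalled or exceeded in size by 25.4% of all genes. All 10 subunit genes had groups that did not overlap, as did 81.0% of all genes tested.

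*Chd4* encodes the remodeling ATPase of the complex (chromosome 6, 125095981 to 125130591, plus strand, GRCm38). Its level was 111 and 109 RPKM in miR-294, 99.6 and 102 RPKM in siMbd2, and 86.7 and 86.2 RPKM in CTR. Both treated groups lay above CTR without overlap, miR-294 the higher. It rose with miR-294 by 0.34 (log2, SE 0.052, adjusted p = 4.95e-04 in limma), and this was 0.15 with quantile normalization, which gives all libraries a common distribution (adjusted p = 0.0253).

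The deacetylase genes *Hdac1* (chromosome 4, 129516104 to 129542713, minus strand) and *Hdac2* (chromosome 10, 36974544 to 37001889, plus strand) encode close paralogs that form the catalytic core with MTA proteins. *Hdac2* stood at 81.3 and 77.6 RPKM in miR-294, 95.8 and 91.2 RPKM in siMbd2, and 101 and 109 RPKM in CTR. The groups did not overlap, with miR-294 lowest and CTR highest. It fell with miR-294 by 0.40 on the log2 scale (SE 0.062, adjusted p = 6.14e-04 in limma). *Hdac1* stood at 124 and 120 RPKM in miR-294, 142 and 144 RPKM in siMbd2, and 133 and 136 RPKM in CTR, so the treated groups lay on opposite sides of CTR. Its fall with miR-294 was small (log2 -0.14, SE 0.052, adjusted p = 0.0375 in limma). The call ended with median-of-ratios scaling, a single factor per library (-0.07, adjusted p = 0.242), when miR-294 replicate 1 was left out (-0.17, adjusted p = 0.116), without miR-294 replicate 2 (-0.12, adjusted p = 0.238), with only the 4 libraries compared (adjusted p = 0.0905) and without an intensity trend, that is, with the prior spread set equal at all levels (adjusted p = 0.0911). The difference was -0.36 with quantile normalization (adjusted p = 4.22e-04). *Gm10093*, annotated as a processed pseudogene, shares 56.4% of the 50-base stretches of the *Hdac1* transcript and is listed at 8.95 and 10.4 RPKM in miR-294, 9.87 and 11.0 RPKM in siMbd2, and 10.1 and 13.7 RPKM in CTR, so the split of reads between the genes is uncertain.

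The histone-binding proteins RBBP4 and RBBP7 are near relatives that also serve in other complexes, among them Polycomb repressive complex 2 and SIN3. *Rbbp4* (chromosome 4, 129307100 to 129335370, minus strand) stood at 144 and 160 RPKM in miR-294, 115 and 113 RPKM in siMbd2, and 121 and 135 RPKM in CTR. The miR-294 libraries were the highest and the siMbd2 libraries the lowest. It rose with miR-294 by 0.24 (log2, SE 0.072, adjusted p = 0.0164 in limma), a call that ended without miR-294 replicate 2 (0.17, adjusted p = 0.158) and with quantile normalization (0.005, adjusted p = 0.962). *Rbbp7* (chromosome X, 162760402 to 162779092, plus strand) stood at 180.1 and 184 RPKM in miR-294, 167 and 163 RPKM in siMbd2, and 185 and 184 RPKM in CTR. Its difference from CTR with miR-294 was -0.02 (95% interval -0.14 to 0.09, adjusted p = 0.726 in limma), it was 0.05 with median-of-ratios scaling (adjusted p = 0.416), and with quantile normalization it was called lower (-0.27, adjusted p = 0.00145). Annotated transcripts of the listed gene *Sync* share 15.8% of the 50-base stretches of *Rbbp4*, and those of *Txlng* 5.70% of *Rbbp7*; no source used here says whether the counting used strand.

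The MTA proteins are the scaffold that binds the deacetylases; with miR-294 *Mta1* and *Mta3* fell and *Mta2* was not called. *Mta3* (chromosome 17, 83706163 to 83821516, plus strand) showed the largest difference among the subunits. Its level was 75.3 and 71.6 RPKM in miR-294, 98.7 and 98.6 RPKM in siMbd2, and 119 and 105 RPKM in CTR. The groups were ordered without overlap, and *Mta3* fell with miR-294 by 0.60 on the log2 scale (SE 0.068, adjusted p = 1.07e-04 in limma). *Mta1* (chromosome 12, 113098278 to 113137206, plus strand) stood at 27.5 and 26.3 RPKM in miR-294, 29.9 and 30.2 RPKM in siMbd2, and 36.4 and 33.0 RPKM in CTR. It fell by 0.35 (SE 0.068, adjusted p = 0.00189 in limma), again with the groups in the order miR-294, siMbd2, CTR from low to high. *Mta2* (chromosome 19, 8941875 to 8952303, plus strand) stood at 53.3 and 53.0 RPKM in miR-294, 52.9 and 57.1 RPKM in siMbd2, and 50.4 and 46.7 RPKM in CTR. Its difference with miR-294 was 0.13 (95% interval -0.02 to 0.28, adjusted p = 0.115 in limma), and it was called higher with median-of-ratios scaling (0.20, adjusted p = 0.0180). It was 0.18 without CTR replicate 1, 0.075 without CTR replicate 2 and 0.033 with quantile normalization (adjusted p = 0.651 in limma).

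The GATAD2 proteins bridge the MBD and CHD subunits, and with miR-294 *Gatad2a* rose while *Gatad2b* fell. *Gatad2a* (chromosome 8, 69907076 to 69996384, minus strand) stood at 35.6 and 33.3 RPKM in miR-294, 32.0 and 33.3 RPKM in siMbd2, and 28.1 and 25.3 RPKM in CTR. Both treated groups lay above CTR, and with miR-294 it rose by 0.36 (log2, SE 0.073, adjusted p = 0.00262 in limma). *Gatad2b* (chromosome 3, 90293178 to 90363407, plus strand), the subunit gene with the 8-base match AGCACTTA printed above, stood at 18.3 and 17.5 RPKM in miR-294, 18.5 and 18.4 RPKM in siMbd2, and 21.5 and 20.0 RPKM in CTR. It fell with miR-294 by 0.20 (log2 -0.20, SE 0.068, adjusted p = 0.0304 in limma), and its siMbd2 libraries also lay below both CTR libraries. The call ended with median-of-ratios scaling (-0.13, adjusted p = 0.0915 in limma), with quantile normalization (-0.11, adjusted p = 0.146) and with only the 4 libraries compared (adjusted p = 0.0679). It also ended without miR-294 replicate 1 (-0.23) and without miR-294 replicate 2 (-0.17). The difference was -0.15 on leaving out CTR replicate 1.

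The miR-294 differences are set here beside the seed matches, whose part in them was not tested. *Hdac2*, with AGCACTT, differed by -0.40. *Gatad2b*, with AGCACTTA, differed by -0.20, against a median of -0.37 over the 399 tested genes of that class. *Rbbp7*, also with AGCACTT, differed by -0.02, and the median over the 1504 genes of the class of *Hdac2* and *Rbbp7* was -0.22, between these values. *Rbbp4* and *Gatad2a*, with the 6-base match alone, differed by 0.24 and 0.36, against a median of -0.15 over the 1339 genes of that class. *Mta3* (-0.60), *Mta1* (-0.35), *Hdac1* (-0.14), *Mta2* (0.13) and *Chd4* (0.34) belong to the 7204 genes with no match, whose median was -0.01. Of those 5 subunit genes 3 lay on the low side of that median, and *Chd4* and *Mta2* on the high side. The classes also differ in 3′ UTR length, with a median of 2846 bases for the 8-base class and 766.5 bases for genes with no match.

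**Figure D2:**
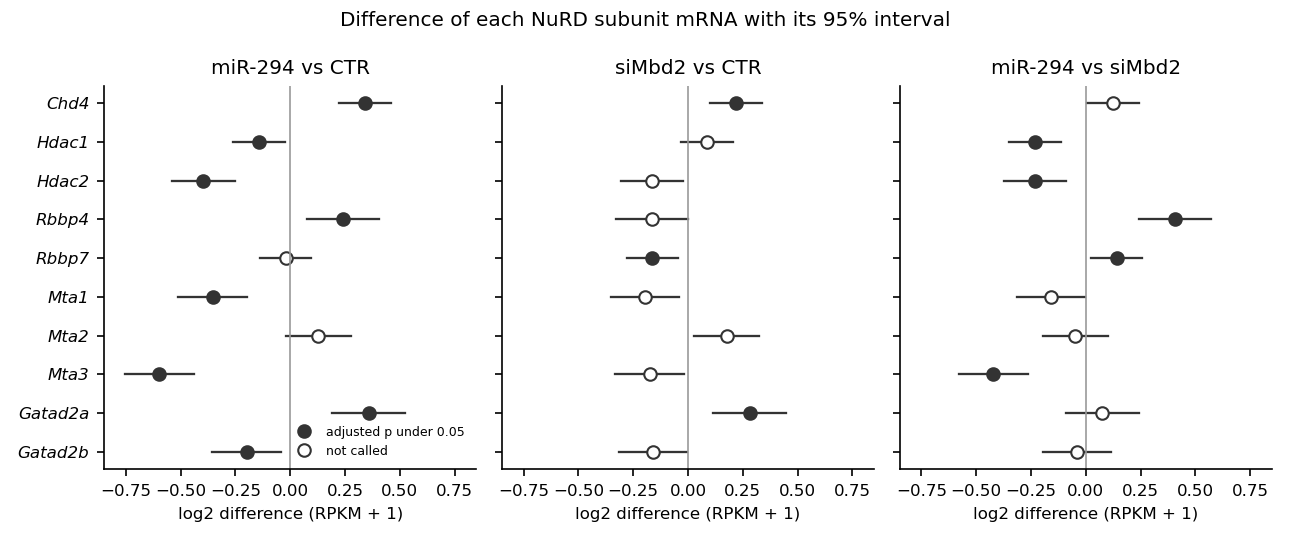
Log2 difference of each NuRD subunit mRNA in the 3 comparisons (horizontal axis, log2 of RPKM + 1, first-named group minus second), with 95% intervals from limma; filled circles have an adjusted p under 0.05. With miR-294 against CTR the subunits run from -0.60 for *Mta3* to 0.36 for *Gatad2a*, and with siMbd2 against CTR from -0.20 for *Mta1* to 0.28 for *Gatad2a*.

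Set against CTR, the siMbd2 cells show mRNA levels after *Mbd2* is lowered by siRNA. *Chd4* rose by 0.22 (log2, SE 0.052, adjusted p = 0.0135 in limma) and *Gatad2a* rose by 0.28 (SE 0.073, adjusted p = 0.0185), and *Rbbp7* fell by 0.16 on the log2 scale (log2 -0.16, SE 0.051, adjusted p = 0.0387). The other 7 subunit genes were not called. Of all genes tested 34.4% were called, 19.5% higher and 14.9% lower. The median log2 difference of the subunits was -0.16, against 0.02 for all genes, and all 10 had groups that did not overlap, as did 67.6% of all genes.

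Of the 7 subunits not called with siMbd2, 6 had differences between 0.16 and 0.20 in size, and *Hdac1* a smaller one. *Mta1* differed by -0.20 (95% interval -0.35 to -0.04, adjusted p = 0.0538), *Mta3* by -0.18 (-0.33 to -0.02, adjusted p = 0.0780), *Hdac2* by -0.16 (-0.31 to -0.02, adjusted p = 0.0717), *Rbbp4* by -0.17 (adjusted p = 0.107) and *Gatad2b* by -0.16 (adjusted p = 0.101). *Mta2* differed by 0.18 (0.03 to 0.32, adjusted p = 0.0664) and *Hdac1* by 0.09 (-0.03 to 0.21, adjusted p = 0.217), all in limma. The 6 negative differences, *Rbbp7* included, thus lay between -0.20 and -0.16. Scaling bears on these counts: with quantile normalization 1 subunit was called higher and 6 lower, and with median-of-ratios scaling 2 higher and 3 lower. Of the 11428 genes tested, 2058 were called higher and 1907 lower with quantile normalization. With median-of-ratios scaling 2307 were called higher and 1868 lower.

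All 3 calls with siMbd2 depended on having both siMbd2 libraries. Each call ended without siMbd2 replicate 1 and without siMbd2 replicate 2, where the limma differences were 0.23 and 0.20 for *Chd4* (adjusted p = 0.0821 and 0.133), 0.31 and 0.25 for *Gatad2a* (adjusted p = 0.0783 and 0.143) and -0.18 and -0.14 for *Rbbp7* (adjusted p = 0.146 and 0.257). The *Chd4* call also ended with quantile normalization (0.15, adjusted p = 0.0520), and that of *Rbbp7* without an intensity trend (adjusted p = 0.0929) and with only the 4 libraries compared (adjusted p = 0.103). Without siMbd2 replicate 1 and without siMbd2 replicate 2, 1856 and 1410 genes were called over the whole table, against 3933 with all libraries. With 1 CTR library left, the spread comes from the treated pairs alone, so only the differences are given for such fits. The tallies of kept calls against CTR in the closing section do count these fits. Without CTR replicate 1, those of *Mta2* (0.23), *Hdac2* (-0.22) and *Rbbp4* (-0.24) were larger in size. Without CTR replicate 2, those of *Mta1* (-0.27), *Mta3* (-0.26) and *Gatad2b* (-0.21) were larger. The opposite omission made the same differences smaller. Without CTR replicate 1 they were -0.13 for *Mta1*, -0.09 for *Mta3* and -0.11 for *Gatad2b*. Without CTR replicate 2 they were 0.12 for *Mta2*, -0.11 for *Hdac2* and -0.09 for *Rbbp4*.

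**Figure D3:**
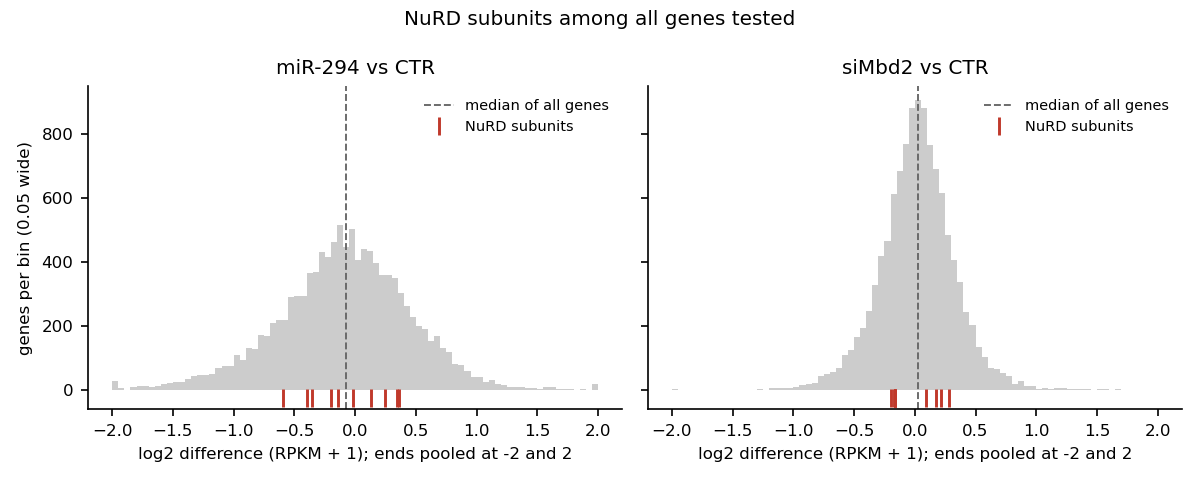
Distribution of log2 differences of all 11428 genes tested (grey bars, genes per bin 0.05 wide; values beyond -2 and 2 are pooled at the ends), with the median of all genes (dashed) and the 10 NuRD subunits (red ticks), for miR-294 against CTR and siMbd2 against CTR. The subunits lie within the body of each distribution, with medians of -0.08 and -0.16.

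The treatments were also compared directly. The group means of CTR do not enter this difference, but its spread comes from the model of all 6 libraries, CTR included; with only the 4 treated libraries 7754 genes were called, against 6561. *Rbbp4* was higher with miR-294 by 0.41 (log2, SE 0.072, adjusted p = 0.00149 in limma) and *Rbbp7* by 0.14 (SE 0.051, adjusted p = 0.0419), a sign that turned with quantile normalization (-0.04). *Mta3* was lower with miR-294 (log2 -0.42, SE 0.068, adjusted p = 9.68e-04), as were *Hdac1* (-0.23, adjusted p = 0.00509) and *Hdac2* (-0.23, adjusted p = 0.0120). *Chd4* (0.12, 95% interval 0.006 to 0.24, adjusted p = 0.0691), *Gatad2a* (0.07, -0.09 to 0.24, adjusted p = 0.407), *Gatad2b* (-0.04, -0.19 to 0.12), *Mta2* (-0.05, -0.20 to 0.10) and *Mta1* (-0.16, -0.31 to -0.001, adjusted p = 0.0784) were not called. Of all genes tested 57.4% were called, 21.9% higher and 35.5% lower (38.1% of the calls higher, against 50.9% with quantile normalization). The groups did not overlap for 8 of the 10 subunit genes and for 84.1% of all genes. The median log2 difference was -0.04 for the subunits and -0.08 for all genes.

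*Mta3* and *Rbbp4* were called in this comparison under each of its 12 alternatives. The *Rbbp7* call ended without any single library, with adjusted p from 0.136 to 0.247, without an intensity trend (adjusted p = 0.102) and with quantile normalization (-0.04, adjusted p = 0.483). That of *Hdac1* ended without miR-294 replicate 2 (-0.21, adjusted p = 0.0674) and without siMbd2 replicate 2 (-0.22, adjusted p = 0.0570), while its value was -0.15 under median-of-ratios scaling and -0.37 under quantile normalization. That of *Hdac2* ended without miR-294 replicate 2 (-0.20, adjusted p = 0.109), without siMbd2 replicate 1 (-0.20, adjusted p = 0.110) and with median-of-ratios scaling (-0.15, adjusted p = 0.0775). *Chd4* passed under median-of-ratios scaling (0.20, adjusted p = 0.00772) and with only the 4 libraries compared (adjusted p = 0.0128), as did *Mta1* in that smaller fit (adjusted p = 0.0149). *Rbbp4* was 0.26 with quantile normalization (adjusted p = 0.0258).

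Shares within a set of paralogs compare genes inside each library and so do not depend on a scaling factor between libraries. They are described without a test, for the reason given for permutations of 2 libraries against 2. *Gatad2a* made up 66.0% and 65.5% of the GATAD2 mRNA in miR-294, 63.4% and 64.4% in siMbd2, and 56.7% and 55.8% in CTR. Its ratio to *Gatad2b* was thus 1.94 and 1.90 in miR-294, 1.73 and 1.81 in siMbd2, and 1.31 and 1.26 in CTR. Both treatments share these CTR libraries.

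*Hdac1* took 60.4% and 60.7% of the summed *Hdac1* and *Hdac2* mRNA in miR-294, 59.7% and 61.3% in siMbd2, and 56.9% and 55.5% in CTR. The treated groups overlapped each other and lay above CTR, although the *Hdac1* level itself was lower than CTR in miR-294 and higher in siMbd2. *Rbbp4* took 44.4% and 46.5% of the RBBP sum in miR-294, 40.7% and 41.0% in siMbd2, and 39.6% and 42.3% in CTR, so here miR-294 stood apart and siMbd2 lay within the CTR range.

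The MTA set shifted between *Mta3* and *Mta2*. *Mta3* took 48.2% and 47.5% of its RPKM in miR-294, 54.4% and 53.0% in siMbd2, and 57.7% and 56.8% in CTR. *Mta2* took 34.1% and 35.1% in miR-294, 29.1% and 30.7% in siMbd2, and 24.5% and 25.3% in CTR. *Mta1* took from 17.4% to 17.6% in miR-294, 16.3% to 16.5% in siMbd2, and 17.7% to 17.9% in CTR. Between miR-294 and CTR the *Mta2* share differed by 9.71 percentage points and the *Mta3* share by -9.44 points.

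**Figure D4:**
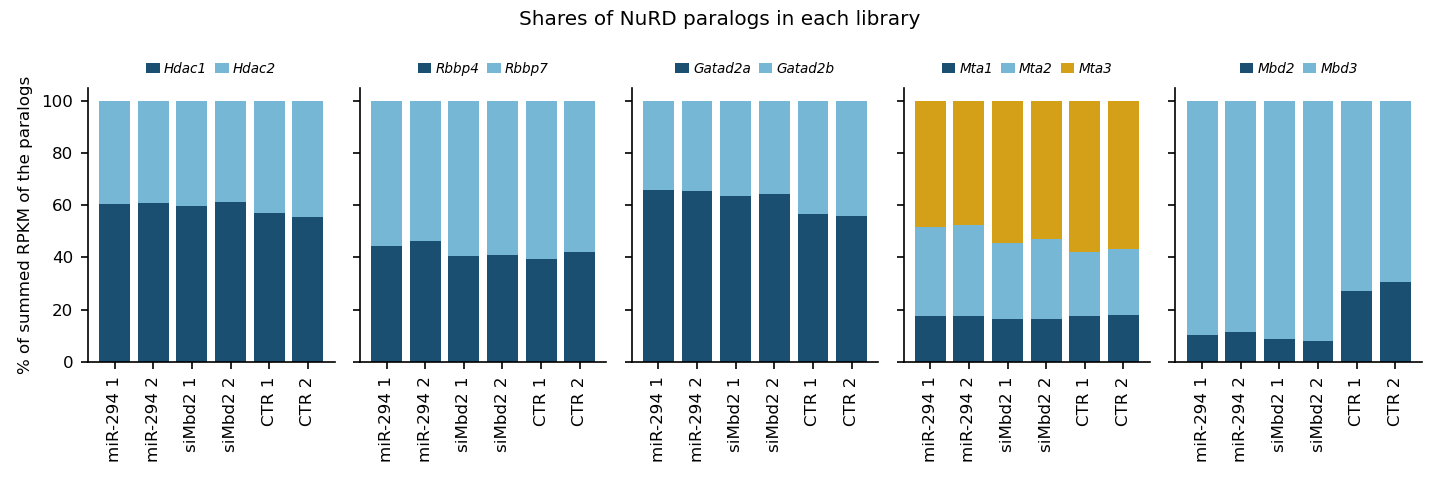
Share of each paralog in the summed RPKM of its set (vertical axis, percent) in every library, miR-294 and siMbd2 left of CTR. The *Gatad2a* and *Mta2* shares are higher in all 4 treated libraries than in both CTR libraries, and the *Mbd2* share is lower.

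The partners that complete the complex covered a wider range of differences than the 10 subunits. Of 6 partner genes, *Mbd2*, *Mbd3*, *Chd3*, *Chd5*, *Cdk2ap1* and *Cdk2ap2*, 3 rose and 3 fell with miR-294 (median log2 difference -0.16, against -0.08 for all genes), and 2 rose and 1 fell with siMbd2 (0.01, against 0.02). Of all genes, 64.5% were called with miR-294 and 34.4% with siMbd2. *Mbd2*, the methyl-CpG binding subunit, fell with miR-294 (log2 -1.15, adjusted p = 1.36e-05) and with siMbd2 (-1.86, adjusted p = 5.04e-05). Between the treatments its level was 0.71 above siMbd2 in miR-294 (adjusted p = 2.23e-04). Its longest 3′ UTR holds AGCACTTA. *Mbd3*, whose product takes the place of MBD2 in the complex, stood at 99.9 and 94.6 RPKM in miR-294, 75.2 and 74.9 RPKM in siMbd2, and 72.2 and 63.5 RPKM in CTR. It rose with miR-294 (0.51, adjusted p = 2.79e-04; 0.34 with quantile normalization, adjusted p = 0.00165) and was 0.15 higher with siMbd2 (adjusted p = 0.140). The siMbd2 difference was 0.24 on leaving out CTR replicate 1 but 0.056 on leaving out CTR replicate 2. *Mbd2* made up 10.1% and 11.5% of the *Mbd2* and *Mbd3* sum in miR-294, 8.88% and 7.81% in siMbd2, and 27.1% and 30.5% in CTR.

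*Chd3*, a remodeler that can take the place of CHD4, stood at 7.50 and 6.58 RPKM in miR-294, 13.6 and 11.1 RPKM in siMbd2, and 16.1 and 14.4 RPKM in CTR. It fell with miR-294 (log2 -1.01, adjusted p = 7.92e-05 in limma), opposite to *Chd4*, and its difference with siMbd2 was -0.29 (adjusted p = 0.0727). The siMbd2 difference passed under median-of-ratios scaling (-0.30, adjusted p = 0.0477) and quantile normalization (-0.32, adjusted p = 0.0444), and was -0.15 without siMbd2 replicate 2 (adjusted p = 0.441). The *Chd4* share of the *Chd3*, *Chd4* and *Chd5* sum was 91.6% and 92.6% in miR-294, 86.9% and 89.0% in siMbd2, and 82.9% and 84.4% in CTR. *Chd5*, a neural relative, was at most 2.72 RPKM in any library. Its call with miR-294 (0.33, adjusted p = 0.0317 in limma) ended with only the 4 libraries compared (adjusted p = 0.0503) and without miR-294 replicate 1 (0.19). The difference was 0.26 on leaving out CTR replicate 2 and 0.50 with quantile normalization. *Cdk2ap1*, which encodes a small NuRD subunit, averaged 31.4 ± 0.59 RPKM in miR-294, 25.4 ± 1.23 RPKM in siMbd2 and 19.6 ± 2.72 RPKM in CTR (SD, n = 2 each). It rose with miR-294 (0.65, adjusted p = 3.30e-04) and with siMbd2 (0.36, adjusted p = 0.0183). The siMbd2 call ended without siMbd2 replicate 1 (0.31) and without siMbd2 replicate 2 (0.41), and the difference was 0.22 without CTR replicate 2. Its relative *Cdk2ap2* stood at 12.02 ± 0.42 RPKM in miR-294, 25.4 ± 0.14 RPKM in siMbd2 and 19.5 ± 2.08 RPKM in CTR (SD, n = 2 each). It fell with miR-294 (-0.65, adjusted p = 1.81e-04) and rose with siMbd2 (0.37, adjusted p = 0.0111), and the difference between the treatments was -1.02 (adjusted p = 2.94e-05 in limma). The *Cdk2ap2* calls were not followed singly under the alternatives.

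**Figure D5:**
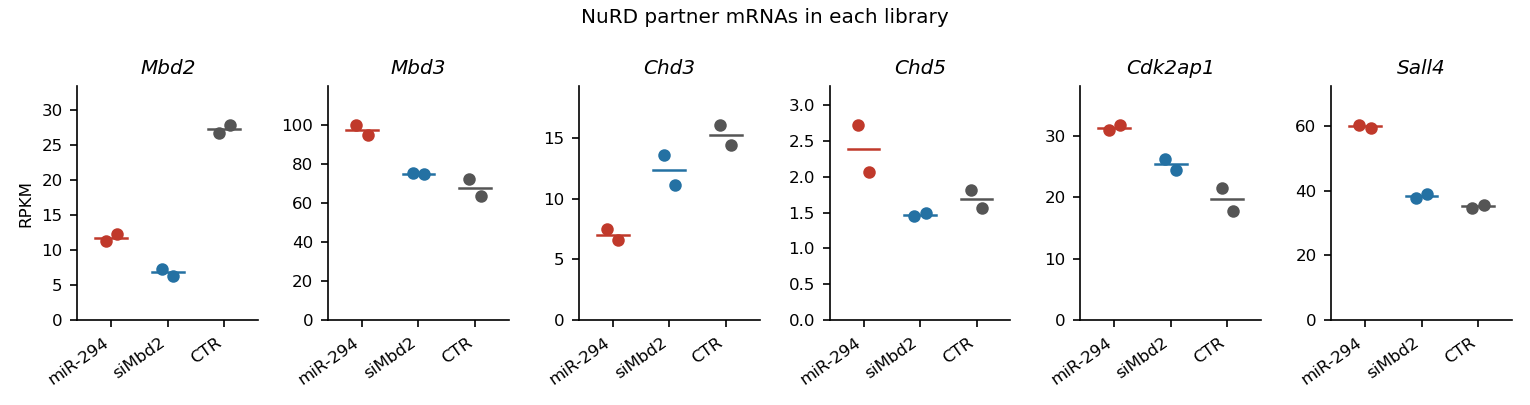
RPKM (vertical axes from 0) of genes whose products complete or recruit NuRD in the miR-294, siMbd2 and CTR groups; points are the 2 libraries of a group and lines their mean. *Mbd2* is lower in all 4 treated libraries than in CTR, *Chd3* is lowest in miR-294, and *Mbd3*, *Cdk2ap1* and *Sall4* are highest in miR-294.

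Factors that bind or recruit NuRD split in direction. Of 14 tested of a list of 17, 5 rose and 5 fell with miR-294, and 4 rose and 1 fell with siMbd2, with median log2 differences of 0.15 and 0.13, against -0.08 and 0.02 for all genes. Over all genes, 27.7% were called higher and 36.8% lower with miR-294, and 19.5% higher and 14.9% lower with siMbd2. *Sall4*, a zinc finger factor of ESCs that binds NuRD, averaged 59.9 ± 0.64 RPKM in miR-294, 38.5 ± 0.89 RPKM in siMbd2 and 35.1 ± 0.84 RPKM in CTR, and rose with miR-294 (0.75, adjusted p = 1.35e-05 in limma). With siMbd2 its difference was 0.13 (adjusted p = 0.118 in limma), and it was 0.10 without CTR replicate 1 and 0.15 without CTR replicate 2. *Trps1*, a GATA-type repressor gene, averaged 4.57 ± 0.33 RPKM in miR-294 and 10.01 ± 0.83 RPKM in CTR (SD, n = 2 each) and fell with miR-294 (-0.98, adjusted p = 3.26e-05), and *Zmynd8*, which encodes a chromatin reader, fell with siMbd2 (-0.21, adjusted p = 0.0448). *Zfp296*, another ESC zinc finger gene, rose with miR-294 (0.78, adjusted p = 4.80e-05 in limma) and with siMbd2 (0.73, adjusted p = 5.86e-04). The calls of *Trps1*, *Zmynd8* and *Zfp296* were not followed singly under the alternatives, so their stability is unknown.

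Other complexes that hold the same deacetylases or the RBBP proteins also had genes of both directions with miR-294, where 27.7% of all genes were called higher and 36.8% lower. Among 14 genes of SIN3 complexes 6 rose and 5 fell (median -0.04), and among 8 tested of 9 genes of CoREST complexes 1 rose and 5 fell (median -0.30), against a median of -0.08 over all genes. *Rcor2*, the CoREST scaffold gene that is prominent in ESCs, averaged 89.2 ± 1.44 RPKM in miR-294, 69.0 ± 1.82 RPKM in siMbd2 and 55.8 ± 5.74 RPKM in CTR, and rose with miR-294 (0.67, adjusted p = 8.67e-05). Of 5 tested MiDAC and MIER genes 1 rose and 3 fell (median -0.42). Of 13 tested genes of other complexes with RBBP4 or RBBP7 3 rose and 3 fell (median -0.13). *Eed*, which encodes a core subunit of Polycomb repressive complex 2, rose (96.1 ± 2.10 RPKM in miR-294 against 50.0 ± 5.79 RPKM in CTR; 0.93, adjusted p = 2.42e-05). Among the 8 other histone deacetylase genes tested 0 rose and 3 fell with miR-294 (median -0.12). With siMbd2, 1 of them rose and 1 fell, where 19.5% of all genes were called higher and 14.9% lower. The gene that rose was *Hdac3* (0.42, adjusted p = 0.00243 in limma). The calls of *Rcor2*, *Eed* and *Hdac3* were not followed singly under the alternatives.

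Genes reported as repressed by MBD3-containing NuRD in mouse ESCs were looked at last. Of 4 tested of a list of 6, *Zfp42*, *Klf5* and *Tbx3* rose with miR-294, by 0.65, 0.46 and 0.33 (adjusted p = 1.69e-05, 2.00e-04 and 0.00238 in limma), and *Klf4* was not called. The list's median was 0.40 with miR-294 and 0.06 with siMbd2, against -0.08 and 0.02 for all genes. Of all genes tested, 27.7% were called higher and 36.8% lower with miR-294, and 19.5% higher and 14.9% lower with siMbd2. With siMbd2 *Tbx3* fell by 0.23 on the log2 scale (adjusted p = 0.0271). In the direct comparison these 3 genes were higher in miR-294, by 0.58, 0.40 and 0.57, and *Klf4* was lower (-0.17, adjusted p = 0.0311). There 21.9% of all genes were called higher and 35.5% lower. The calls of these listed genes were not followed singly under the alternatives.

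Promoter windows from RefSeq (GRCm38.p6, 250 bases before to 50 after the start) were found for 8 of the 10 subunit genes, on 11 windows, and not for *Hdac1* and *Mta3*. Their CpG counts ran from 16 to 50 per 300 bases, against a median of 21 for 11123 windows of tested genes. The E-box CACGTG, a motif bound by MYC-family proteins among others, was in the *Rbbp4* window and in no other subunit window, and 10.2% of windows of tested genes hold it. The box CCAAT, sought on both strands, was in both windows of *Chd4* and of *Gatad2b*, in those of *Rbbp4* and *Rbbp7*, and in 1 of the *Gatad2a* windows. The *Chd4* windows overlap and hold the same CCAAT. Of windows of tested genes, 38.1% hold the box. The motif CCGGAAG was in the *Mta2* window and 1 of the *Gatad2a* windows, against 18.2% of windows of tested genes. The windows of the RBBP paralogs are shown because their levels parted in miR-294; capitals mark CACGTG, and CCAAT or its reverse ATTGG. The first lies at chr4:129335321-129335620 on the minus strand and the second at chrX:162760122-162760421 on the plus strand.
Rbbp4: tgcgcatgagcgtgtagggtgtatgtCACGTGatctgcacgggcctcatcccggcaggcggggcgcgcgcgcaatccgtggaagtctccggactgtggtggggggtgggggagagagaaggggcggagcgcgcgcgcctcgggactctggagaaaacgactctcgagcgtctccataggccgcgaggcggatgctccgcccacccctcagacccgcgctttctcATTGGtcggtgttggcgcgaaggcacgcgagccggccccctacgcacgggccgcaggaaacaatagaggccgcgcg
Rbbp7: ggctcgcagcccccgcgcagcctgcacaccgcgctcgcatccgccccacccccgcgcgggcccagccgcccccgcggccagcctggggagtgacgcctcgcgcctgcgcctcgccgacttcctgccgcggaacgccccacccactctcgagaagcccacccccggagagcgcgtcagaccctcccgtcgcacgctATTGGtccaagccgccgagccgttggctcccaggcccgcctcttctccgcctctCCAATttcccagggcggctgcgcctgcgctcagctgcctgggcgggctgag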

How the data were processed

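The deposited table holds RPKM values, computed by the authors, for 13743 entries in 6 libraries, to 2 decimals. The submitters' processing notes name CASAVA 1.7, STAR 2.3.0, Cufflinks and mm10 without roles, and per the labels each library is the mean of a pair of lanes. The authors' deposited ratio columns (treatment over mock) were not used. Counting error cannot be had from RPKM.

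Values were taken as log2(RPKM + 1), for entries with a mean of at least 1 RPKM. All 6 libraries entered a single model of 3 group means in limma (version 3.58.1, under R 4.3.3). Its variance prior followed intensity, with 3 residual and 5.38 prior degrees of freedom, and two-sided tests were adjusted by Benjamini-Hochberg within a comparison. The fit was tested on simulated data. Sequences and matches were read with Python 3.11.15. Subunits and gene lists were chosen with earlier results of these data known. Beyond the subunits, *Mbd2*, *Mbd3*, *Chd3*, *Chd5*, *Cdk2ap1* and *Sall4* were fixed for naming, and up to 3 called, non-overlapping genes of each list with the largest differences and a mean of at least 5 RPKM in the higher group could be named; *Klf4* and the marker genes stand beside them.

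Alternatives were other pseudocounts, filters, scalings and variance priors, fewer libraries and a replicate block. Beyond the subunits, only the genes fixed for naming were followed singly under them. The stability of other named calls is therefore unknown.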

Additional observations from a re-analysis of the deposited data

How the results depend on the processing

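Of the subunit calls, 5 of 8 were kept under all 12 alternatives for miR-294 vs CTR (*Chd4*, *Gatad2a*, *Hdac2*, *Mta1* and *Mta3*), 2 of 5 for miR-294 vs siMbd2, and 0 of 3 for siMbd2 vs CTR, in limma. The same tally was not made over all genes, so it does not set the subunits apart from other genes. In miR-294 vs CTR, 3 subunits were called lower with median-of-ratios scaling and with only the 4 libraries of the comparison. Those settings called 3780 and 3920 of the 11428 genes lower, against 4204 in the main fit. The subunit count also fell in some fits without a single library. In siMbd2 vs CTR, subunits called lower numbered 3 with median-of-ratios scaling, 6 with quantile normalization, 0 without an intensity trend and 0 with only 4 libraries, and 0 to 4 without single libraries; those called higher numbered 1 with quantile normalization and 0 to 3 without single libraries, and genes called 1410 to 5402. In miR-294 vs siMbd2, 1 subunit was called higher with quantile normalization and without an intensity trend. Those settings called 3259 and 2419 genes higher, against 2500 in the main fit. The count of subunits called higher also changed when any single library was left out. Signs turned in 6 subunit differences, of which only that of *Rbbp7* in miR-294 vs siMbd2 had been called: with median-of-ratios scaling *Rbbp7* in miR-294 vs CTR (0.048) and *Mta2* (0.031) and *Gatad2b* (0.038) in miR-294 vs siMbd2, with quantile normalization *Rbbp7* (-0.041) and *Gatad2b* (0.11) in miR-294 vs siMbd2, and without siMbd2 replicate 2 *Mta2* there (0.0067, and -0.103 without siMbd2 replicate 1). The cause was not tested. Quantile normalization moved the median of all genes in miR-294 vs siMbd2 to 0.02, against -0.08, and the share of calls that were higher to 50.9%, against 38.1%. With the replicate block 2 subunits were called lower in siMbd2 vs CTR, *Mta1* passing (adjusted p = 0.0435 in limma), and no other subunit call changed. That setting called 1872 genes lower, against 1702 in the main fit. Of the partners *Chd3* passed there (-0.29, adjusted p = 0.0187 in limma). Replicate numbers are not stated to mark a shared batch, and same-numbered libraries deviated together weakly (r over genes 0.022, 0.119 and 0.132). Depth is unknown, and 2 libraries a group limit every call.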
